A study of Mus musculus with 20 samples.

Results

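Transcripts of 9 transcription factor genes, out of 21963 entries in a table of gene counts, were followed across the groups: the interferon regulatory factors Irf1, Irf2, Irf3, Irf4, Irf5, Irf7, Irf8 and Irf9, and Stat2. They were taken by gene symbol alone, and 9 of 9 passed the filter on low counts that left 11707 genes for testing. The RNA came from mouse bone marrow-derived macrophages (BMDMs), which are macrophages grown in culture from marrow progenitors of mice aged 15 to 25 weeks. Wild-type (WT) cells were left untreated (n = 4), given zymosan for 3 h (n = 5), or given zymosan for 3 h with 10 µM BAPTA-AM (n = 4). Mcu-/- cells were left untreated (n = 4) or given zymosan for 3 h (n = 3). Zymosan is a yeast cell wall particle sensed by Dectin-1 and TLR2 and was added at 1 cell to 2 particles, and BAPTA-AM is a chelator that enters cells and binds free cytosolic Ca2+. Mcu encodes the pore of the mitochondrial Ca2+ uniporter, and the Mcu-/- cells carried floxed Mcu with Cre driven by the Cx3cr1 promoter, a myeloid promoter, so deletion depended on that promoter having been active in the lineage. The labels call the libraries biological replicates but do not tie them to single mice.

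IRFs are transcription factors that share a DNA-binding domain and read interferon-stimulated response elements. IRF3 and IRF7 are held in the cytoplasm until sensors of microbial products have them phosphorylated, and they then switch on interferon beta. Secreted interferon acts back on the cell through its receptor and the JAK kinases, and STAT2 with IRF9 forms the DNA-binding arm of the complex that drives antiviral genes, Irf7 among them. IRF1 is an inducible activator of interferon gamma and inflammatory genes, IRF2 is its partner and competitor on the same sites, IRF5 works downstream of Toll-like receptors, IRF8 is a lineage factor of macrophages and dendritic cells, and IRF4 is better known from lymphocytes, dendritic cells and alternatively activated macrophages.

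The libraries held from 14420402 to 23954552 counts each. Mcu itself stood at 125.7 to 196.8 normalized counts over the 13 WT libraries and at 54.19 to 83.42 over the 7 Mcu-/- libraries, with no overlap. Normalized counts here are counts scaled by TMM to the mean library size of 20617761. Untreated Mcu-/- replicate 4 stood apart from its group, and it differed from it in many of the genes in which the zymosan-treated Mcu-/- libraries differed from WT. At 2-fold or more, 1982 of the 11707 genes set it apart from untreated Mcu-/- replicates 1 to 3. Of these, 1247 (62.9%) also differed at least 2-fold in the same direction between Mcu-/- and WT with zymosan, a comparison with no library in common, and 18 differed in the opposite direction. Among the 2570 genes not called in the zymosan response of WT cells, 531 set replicate 4 apart at 2-fold or more, and 395 of them (74.4%) differed in the same way in the zymosan comparison and 2 in the opposite way. The 1247 genes were 65.7% of the 1897 that differed at least 2-fold in the zymosan comparison, whereas untreated Mcu-/- replicates 1 to 3 differed at least 2-fold from WT untreated in 121 genes. The macrophage marker Cd68 showed the split, at 971 CPM, a count scaled by the library total and its TMM factor, in replicate 4. Its mean was 1160 in zymosan-treated Mcu-/- cells and 255 in untreated Mcu-/- replicates 1 to 3. In WT cells the mean was 223 untreated and 309 with zymosan. Csf1r, Fcgr1 and Mertk were also higher in replicate 4 than in replicates 1 to 3, but Lyz2, Adgre1 and Itgam were lower. Lyz2 stood at 2820 CPM against a mean of 8110, Adgre1 at 2460 against 4250 and Itgam at 238 against 759. Means in zymosan-treated Mcu-/- cells differed from those in WT zymosan cells in the same directions. Genotype and this division of the libraries cannot be told apart in the zymosan-treated cells, because all 3 Mcu-/- zymosan libraries lie on one side of it. Macrophage markers were summed over 7 of 7 genes and ranged from 13100 to 15300 CPM in WT libraries, from 14200 to 14500 in untreated Mcu-/- replicates 1 to 3, from 9070 to 9340 in Mcu-/- zymosan libraries, and stood at 8360 in replicate 4. Of other cell types, 4 of 4 T and NK cell markers, the plasmacytoid markers Siglech and Klk1, the dendritic marker Flt3 and the neutrophil markers Ly6g, Elane and Mpo were at 3 counts or fewer in every library. Other genes of the same lists were present and moved with the groups. The 5 plasmacytoid markers summed to 50.9 to 57.1 CPM in WT untreated, 118 to 132 in WT zymosan, 105 to 115 with BAPTA-AM, 179 to 184 in Mcu-/- zymosan libraries, 49.7 to 53.0 in untreated Mcu-/- replicates 1 to 3 and 77.5 in replicate 4, mostly from Tcf4. The 5 dendritic markers summed to at most 1.24 CPM in untreated libraries and to 5.84 to 11.6 with zymosan, mostly from Xcr1. The 5 B cell markers summed to 53.6 to 55.8 CPM in WT untreated, 30.8 to 37.4 in WT zymosan, 31.9 to 34.6 with BAPTA-AM, 13.0 to 13.6 in Mcu-/- zymosan libraries, 53.5 to 55.4 in untreated Mcu-/- replicates 1 to 3 and 18.8 in replicate 4, mostly from Cd79b. The 5 neutrophil markers summed to at most 4.82 CPM in any library. The 5 fibroblast markers summed to at most 5.12 CPM in WT libraries, to 40.5 to 49.3 in Mcu-/- zymosan libraries and to 25.3 in replicate 4, with Col1a1 and Col1a2 carrying nearly all of it. Whether these shifts bear on the factors below was not tested.

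Promoter sequence is shown for the 4 factors whose windows held a match to the elements read by the pathway itself. Each window runs from 250 bases before to 50 bases after a RefSeq start site in GRCm38.p6 and is printed 5′ to 3′ on the gene's strand, the plus strand in all 4. Capitals mark matches, on either strand, to the STAT element GAS (TTCNNNGAA), the interferon-stimulated response element ISRE (GAAANNGAAA) and the NF-kB consensus. Over 32851 mouse promoter windows of that length, 8.3% held the GAS letters, 3.44% the ISRE letters and 4.51% the NF-kB consensus.
Irf1, chr11:53769764-53770063: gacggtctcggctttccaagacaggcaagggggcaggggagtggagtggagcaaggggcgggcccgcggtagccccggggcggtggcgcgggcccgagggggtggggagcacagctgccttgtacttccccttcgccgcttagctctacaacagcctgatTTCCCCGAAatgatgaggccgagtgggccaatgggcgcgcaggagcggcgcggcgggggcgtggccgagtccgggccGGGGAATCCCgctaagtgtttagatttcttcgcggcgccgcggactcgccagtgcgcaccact
Irf8, chr8:120736108-120736407: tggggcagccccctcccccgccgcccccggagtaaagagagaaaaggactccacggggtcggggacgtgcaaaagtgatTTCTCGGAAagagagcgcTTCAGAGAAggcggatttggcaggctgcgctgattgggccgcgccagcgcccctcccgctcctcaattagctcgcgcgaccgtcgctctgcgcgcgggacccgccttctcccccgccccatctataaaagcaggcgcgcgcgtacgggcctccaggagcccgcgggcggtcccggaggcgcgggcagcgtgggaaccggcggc
Irf2, chr8:46739495-46739794: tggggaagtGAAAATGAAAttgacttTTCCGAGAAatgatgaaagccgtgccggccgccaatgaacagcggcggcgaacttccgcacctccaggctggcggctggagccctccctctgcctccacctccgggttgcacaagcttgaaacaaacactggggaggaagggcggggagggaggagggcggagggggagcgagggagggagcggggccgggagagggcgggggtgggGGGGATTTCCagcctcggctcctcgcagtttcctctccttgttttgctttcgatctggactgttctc
Stat2, chr10:128270248-128270547: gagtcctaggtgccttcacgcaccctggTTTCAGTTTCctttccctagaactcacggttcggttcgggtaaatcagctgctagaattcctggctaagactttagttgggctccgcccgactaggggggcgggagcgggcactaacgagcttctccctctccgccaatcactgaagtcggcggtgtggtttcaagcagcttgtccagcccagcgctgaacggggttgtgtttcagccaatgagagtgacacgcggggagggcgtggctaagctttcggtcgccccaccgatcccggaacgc
In Irf1 the GAS letters lay 90 to 82 bases before the start and the NF-kB letters 13 to 4 bases before it. Irf8 held 2 GAS matches, at 171 to 163 and 153 to 145 bases before the start. Irf2 held all 3 elements, with the ISRE at 241 to 232, the GAS at 224 to 216 and the NF-kB letters at 17 to 8 bases before the start. In Stat2 the ISRE lay on the reverse strand, 222 to 213 bases before the start. The windows at a further start site of Irf1 and of Irf8, and the windows of Irf3, Irf4, Irf5, Irf7 and Irf9, held none of these letter patterns. A match describes the letters in a window and is not evidence that a factor was bound there.

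The first question was how these factors responded to zymosan in WT macrophages. After 3 h 8 of the 9 were higher and 1 was lower by edgeR's quasi-likelihood test (Benjamini-Hochberg adjusted p under 0.05 over all genes tested), where 37% of all 11707 genes were called higher and 41.1% lower (4327 and 4810 genes, or 2033 and 8518 with scaling by library totals alone). The largest rises were in Irf1, Irf7 and Stat2, and smaller ones were seen in Irf9, Irf8, Irf2 and Irf5. In bulk RNA fewer cells of a type and less RNA per cell cannot be told apart.

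Irf1, the inducible activator, read 647.6, 630.3, 677.7 and 660.2 normalized counts in the untreated WT libraries and 28760, 27540, 27710, 26800 and 26680 with zymosan. Every zymosan library lay far above every untreated one. The rise was 42.1-fold (log2 fold change 5.39, SE 0.038, edgeR adjusted p = 2.33e-38). Irf7, the amplifier of interferon production, read 564.1, 544.7, 595.6 and 545.7 untreated and 8149, 7211, 7057, 8108 and 7575 with zymosan, a rise of 13.5-fold (log2 3.76, SE 0.048, edgeR adjusted p = 4.46e-32). The groups did not overlap.

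Stat2 and Irf9, whose proteins act together in one complex, rose by different amounts. Stat2 read 789.9, 794.7, 773.8 and 788.5 untreated and 10390, 9434, 9113, 11000 and 9630 with zymosan, or 12.6-fold higher (log2 3.65, SE 0.049, edgeR adjusted p = 1.01e-31). Irf9 read 558.8, 573.5, 591.2 and 631.3 untreated and 2650, 2534, 2544, 2671 and 2586 with zymosan, or 4.42-fold higher (log2 2.14, SE 0.042, edgeR adjusted p = 1.76e-27). Neither gene had a zymosan library within the untreated range. Exons of Irf9 and of its neighbour Rnf31 touch on the same strand, and Rnf31 had a log2 fold change of 2.15 in this comparison, so reads in the shared stretch cannot be assigned from these counts.

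Irf8, Irf2 and Irf5 rose by smaller factors. Irf8, the lineage factor, went from 3986 ± 102.1 (SD, n = 4) to 15640 ± 1180 (SD, n = 5) normalized counts, with untreated libraries between 3896 and 4133 and zymosan libraries between 14680 and 17390. Its rise was 3.92-fold (log2 1.97, SE 0.041, edgeR adjusted p = 9.54e-27). Irf2, the partner and competitor of IRF1, went from 1035 ± 54.12 (SD, n = 4) to 2957 ± 169.6 (SD, n = 5), or 2.85-fold (log2 1.51, SE 0.044, edgeR adjusted p = 4.95e-23). Both genes had clear gaps between the groups. Irf5, the factor downstream of Toll-like receptors, went from 4496 ± 227.5 (SD, n = 4) to 10130 ± 385.2 (SD, n = 5), or 2.25-fold (log2 1.17, SE 0.035, edgeR adjusted p = 8.39e-23), again without overlap.

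Irf3, the factor that is activated by phosphorylation, was the one member that fell. It read 702.1, 626.8, 676.8 and 687.9 normalized counts untreated and 497.8, 488.1, 478.3, 496.7 and 465.1 with zymosan. All 5 zymosan libraries lay below all 4 untreated ones, and the level with zymosan was 0.721 of that without (log2 -0.47, SE 0.051, edgeR adjusted p = 1.76e-09). Irf4 was barely expressed, at 13.24 to 20.11 normalized counts untreated and 18.79 to 37.71 with zymosan, and the groups overlapped. Its rise (log2 0.70, SE 0.273, edgeR adjusted p = 0.0222) lost its call when libraries were scaled by their totals alone (0.21, adjusted p = 0.473), and without any one of untreated replicate 3 (adjusted p = 0.0683), zymosan replicate 3 (0.0817) or zymosan replicate 5 (0.0885). Scaling by totals moved the median log2 fold change of all genes from -0.04 to -0.53, and the other 8 factors kept their direction and call. For the 8 members without overlap the exact two-sided permutation test on log2 normalized counts gave p = 0.0159, and groups of 4 and 5 cannot give less.

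**Figure D1:**
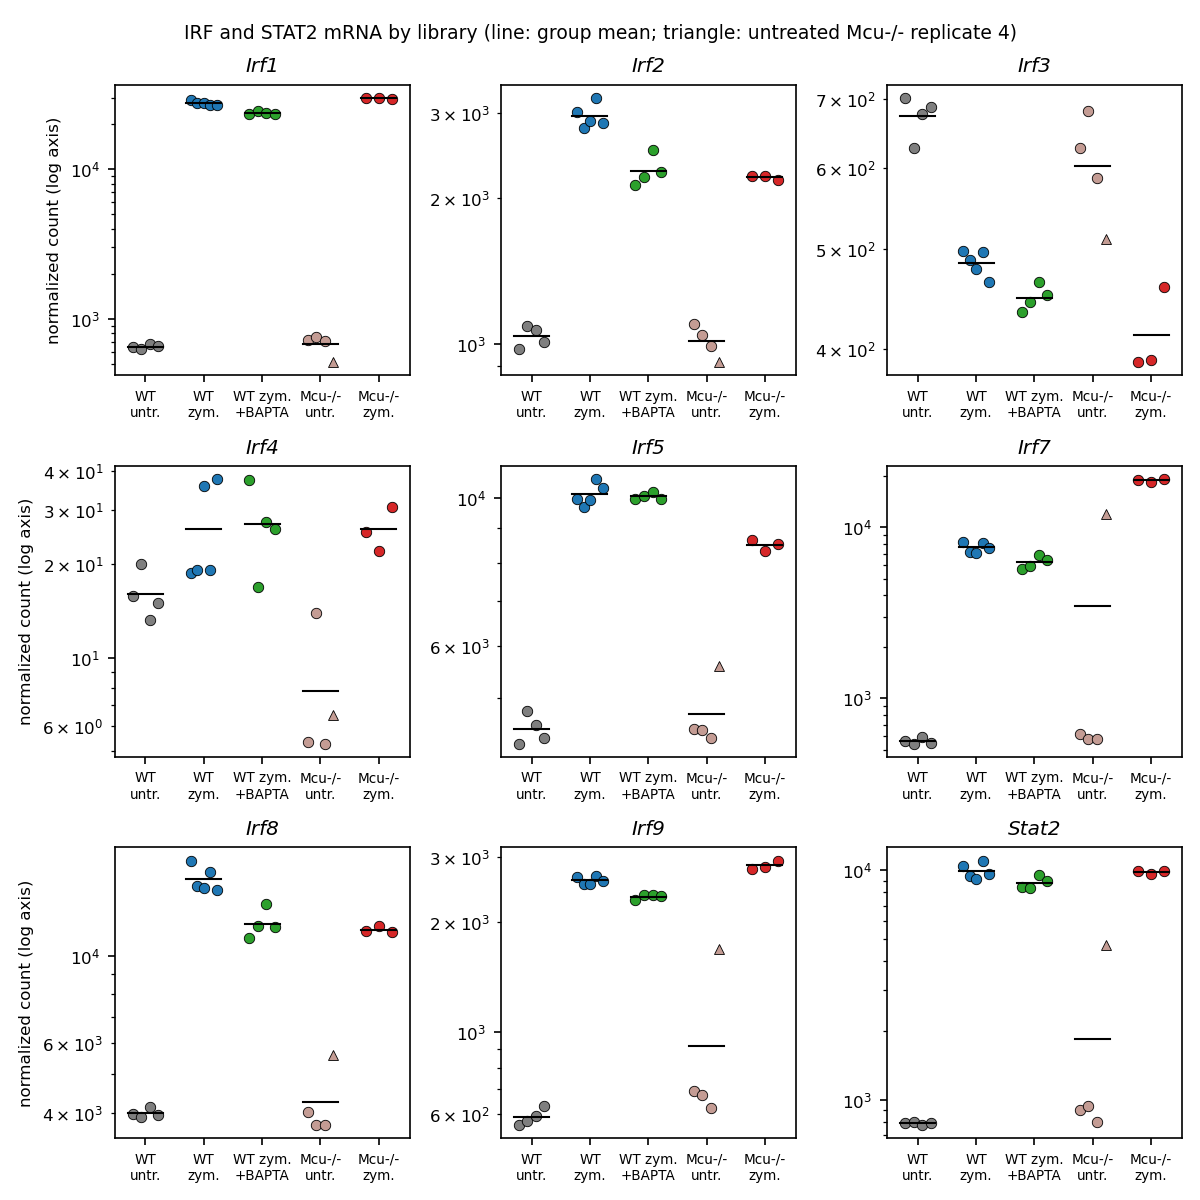
Normalized counts (log axis, each panel with its own range) of the 9 factors in every library, by group on the horizontal axis; points are libraries and the short line is the group mean. With zymosan Irf1, Irf7 and Stat2 rise most, Irf3 falls, and untreated Mcu-/- replicate 4 (triangle) lies far above its group for Irf7 (12010), Stat2 (4704) and Irf9 (1689).

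The order of the factors by level, compared per kb of exon, changed with zymosan. Exon length counted every base in any annotated exon of a gene, which for Irf7 (3776 bases) is the whole gene. Ranks between factors depend on that choice, whereas changes within a factor do not. In untreated WT cells Irf5 led with a mean of 1550 normalized counts per kb, followed by Irf8 at 565, Irf3 at 196, Irf1 at 164, Irf7 at 149, Irf2 at 140, Stat2 at 133, Irf9 at 109 and Irf4 at 3.27. The ranges of Irf7 and Irf2 overlapped over the libraries, as did those of Irf2 and Stat2, and the other neighbours in that order did not overlap. With zymosan Irf1 led at 6920 per kb, ahead of Irf5 at 3490, Irf8 at 2220, Irf7 at 2020, Stat2 at 1670, Irf9 at 482, Irf2 at 400, Irf3 at 141 and Irf4 at 5.33. Only Irf8 and Irf7 overlapped among these neighbours. Irf3 thus stood at rank 3 of 9 without zymosan and at rank 8 with it. In zymosan-treated Mcu-/- cells Irf7 held the second place at 4980 per kb, between Irf1 at 7500 and Irf5 at 2930, and Stat2 (1660) and Irf8 (1650) overlapped.

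**Figure D2:**
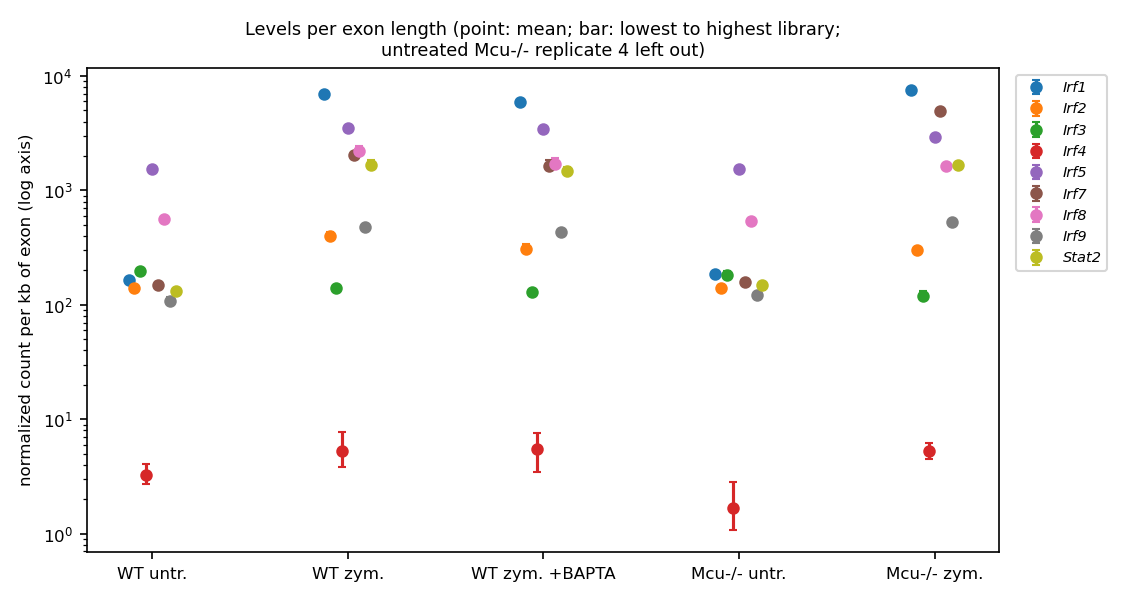
Mean normalized count per kb of exon (log axis) of each factor in the 5 groups, with bars from the lowest to the highest library and untreated Mcu-/- replicate 4 left out. Irf5 leads in both untreated groups, Irf1 leads in the 3 zymosan groups, and Irf4 stays below 10 per kb throughout.

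The next question was how levels with zymosan differed when cytosolic Ca2+ was chelated. With BAPTA-AM 6 of the 9 factors were lower than with zymosan alone and 0 were higher by edgeR's test at an adjusted p under 0.05, where 15.9% of all genes tested were called lower and 14% higher (1857 and 1644 genes, or 1221 and 2854 with scaling by library totals). The falls were small beside the rises that zymosan gave. Irf2 read 2126, 2213, 2513 and 2264 normalized counts with BAPTA-AM against 2793 to 3225 without it, and Irf8 read 11060, 11850, 13480 and 11820 against 14680 to 17390. In both genes every BAPTA-AM library was below every library without it. Their log2 fold changes were -0.38 (SE 0.045, edgeR adjusted p = 5.96e-07) and -0.38 (SE 0.047, edgeR adjusted p = 1.29e-06), levels 0.77 of those without the chelator.

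Irf7 read 5678, 5917, 6892 and 6434 with BAPTA-AM against 7057 to 8149 without, or log2 -0.29 (SE 0.047, edgeR adjusted p = 3.86e-05). Irf1 read 23290, 24320, 23720 and 23440 against 26680 to 28760, or log2 -0.21 (SE 0.024, edgeR adjusted p = 2.34e-07). Neither gene's groups overlapped. Irf9 (log2 -0.15, edgeR adjusted p = 0.000997) and Stat2 (log2 -0.17, edgeR adjusted p = 0.00468) were lower by less, and for Stat2 the groups overlapped, with 8400 to 9483 against 9113 to 11000. Without overlap the exact two-sided permutation p was 0.0159, and for Stat2 the same exact test gave 0.0476.

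Irf3, Irf5 and Irf4 were not called with BAPTA-AM. Irf3 had a log2 fold change of -0.11 (95% confidence interval -0.23 to -0.002, edgeR adjusted p = 0.121), with 434.3 to 465.0 against 465.1 to 497.8 normalized counts. Irf5 read 9956 to 10220 against 9702 to 10670, a log2 fold change of -0.01 with a narrow interval of -0.07 to 0.05. Irf4 had an interval of -0.52 to 0.61 and no difference was detectable at 16.87 to 37.71 normalized counts. When all 20 libraries shared one estimate of spread, only Irf2 and Irf8 remained called (2 of 9), and Irf7 had an adjusted p of 0.854 there.

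Set against untreated WT cells, cells with zymosan and BAPTA-AM together still showed 8 factors higher and 1 lower (edgeR, where 36.4% of all genes were called higher and 39% lower, 4257 and 4560 genes, or 2072 and 8106 with scaling by library totals). Irf1 was 36.2-fold higher, Irf7 11.1-fold, Stat2 11.2-fold, Irf9 4.0-fold, Irf8 3.02-fold, Irf5 2.23-fold and Irf2 2.2-fold, whereas Irf3 stood at 0.666 of its untreated level. Irf4 was also called (log2 0.74, adjusted p = 0.0158), but not without BAPTA-AM replicate 1 (adjusted p = 0.106) or with scaling by library totals (0.285). This comparison uses the same untreated libraries as the zymosan response above. As a share of the rise in mean normalized count seen with zymosan alone, 64.7% of the rise of Irf2 was present with BAPTA-AM, 69.2% of that of Irf8, 80.3% of that of Irf7, 85.8% of that of Irf1, 87.5% of that of Irf9, 88% of that of Stat2 and 98.6% of that of Irf5. The ranking of these shares was not tested. No group had BAPTA-AM without zymosan, and both rises were taken from untreated cells without the chelator. An effect of BAPTA-AM on the untreated level thus cannot be told apart from one on the response.

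Loss of Mcu was then compared with WT in zymosan-treated cells. Of the 9 factors 3 were higher and 4 lower in Mcu-/- cells by edgeR's test at an adjusted p under 0.05, against 36% and 33.2% of all genes tested, so the number of factors called was near the background. The sizes were uneven, and one gene stood out. Irf7 read 18860, 18500 and 19090 normalized counts in the Mcu-/- libraries and 8149, 7211, 7057, 8108 and 7575 in the WT ones. The lowest Mcu-/- library was above the highest WT library by more than the whole spread of either group. Irf7 was 2.47-fold higher in Mcu-/- cells (log2 1.30, SE 0.037, edgeR adjusted p = 2.6e-20). Exons of Irf7 touch those of Phrf1 on the opposite strand and the counting of strand is not given in the sources used here. Phrf1 had at most 1583 counts in any library and a log2 fold change of 0.08 in this comparison.

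Irf1 and Irf9 were higher by small margins. Irf1 read 29960, 29950 and 29550 in Mcu-/- libraries against 26680 to 28760 in WT, or log2 0.12 (SE 0.026, edgeR adjusted p = 0.00038). Irf9 read 2794, 2824 and 2937 against 2534 to 2671, or log2 0.14 (SE 0.035, edgeR adjusted p = 0.00133). In both the groups were separate but close. Stat2, the partner of IRF9, read 9924, 9650 and 9956 against 9113 to 11000 and was not called (log2 -0.01, 95% confidence interval -0.10 to 0.08).

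Irf8, Irf2, Irf5 and Irf3 were lower in Mcu-/- cells with zymosan. Irf8 read 11550, 11870 and 11490 against 14680 to 17390 (log2 -0.43, SE 0.042, edgeR adjusted p = 1.62e-09). Irf2 read 2221, 2226 and 2177 against 2793 to 3225 (log2 -0.42, SE 0.042, edgeR adjusted p = 2.24e-09). These levels lay within the ranges of the BAPTA-AM libraries, 11060 to 13480 and 2126 to 2513, although the sets of cells differ in genotype and share the same WT zymosan comparators. Irf5 read 8635, 8339 and 8533 against 9702 to 10670 (log2 -0.25, SE 0.032, edgeR adjusted p = 1.22e-07). Irf3 read 388.3, 390.3 and 459.3 against 465.1 to 497.8 (log2 -0.23, SE 0.067, edgeR adjusted p = 0.00411). None of these 4 overlapped between genotypes, but for Irf3 the gap was small. Its opposite-strand neighbour Bcl2l12, which shares exon sequence with it, had a log2 fold change of -0.55 in the same comparison. Irf4 was not called (log2 0.005, 95% confidence interval -0.58 to 0.59). For the 7 called factors the exact two-sided permutation p was 0.0357, and groups of 3 and 5 cannot give less. With all 20 libraries in one fit 4 of 9 were called, and Irf7 (adjusted p = 0.105), Irf1 (0.215) and Irf9 (0.599) were not.

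**Figure D3:**
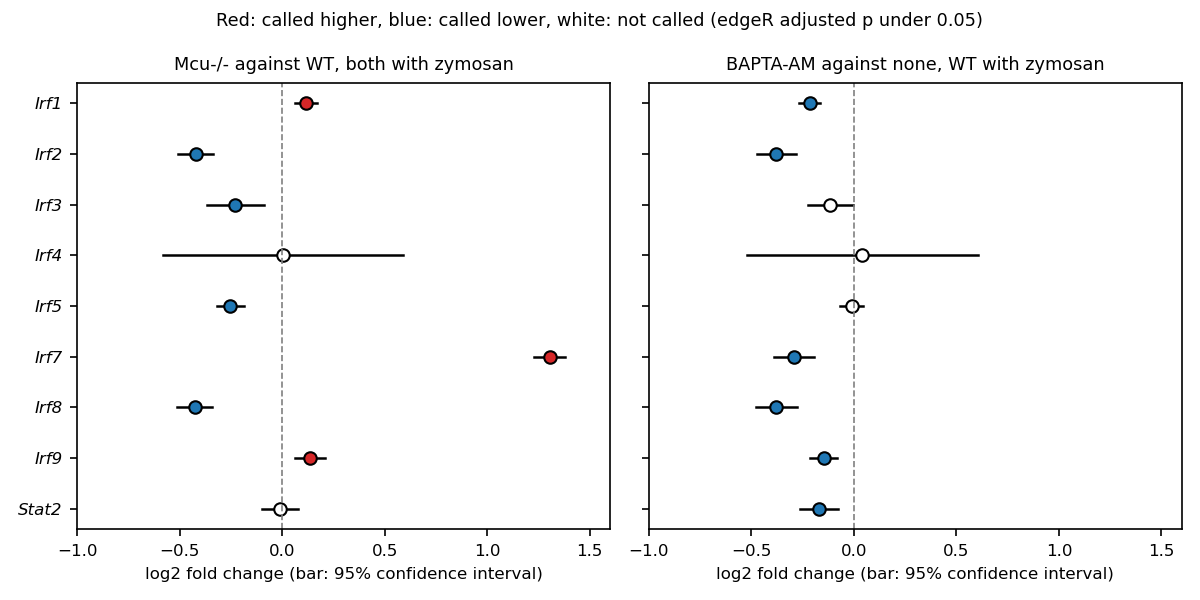
Log2 fold change (point) and 95% confidence interval (bar) of each factor for Mcu-/- against WT, both with zymosan (left), and for BAPTA-AM against none in WT cells with zymosan (right); red points were called higher, blue points lower and white points not called. Irf7 lies at 1.30 on the left and -0.29 on the right, while Irf8 and Irf2 lie between -0.43 and -0.38 on both sides. The panels share the WT zymosan libraries.

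Without zymosan the differences between genotypes were small outside replicate 4. In untreated cells 0 of 9 factors were called by edgeR's test, where 0.00854% of all genes tested were called higher and 0.0256% lower, and 557 genes had an unadjusted p under 0.05. Replicate 4 carried most of the spread. Irf7 read 619.6, 578.9 and 583.3 normalized counts in untreated Mcu-/- replicates 1 to 3 and 12010 in replicate 4, against 544.7 to 595.6 in WT. Replicate 4 thus lay above every zymosan-treated WT library, which reached 8149, and below every zymosan-treated Mcu-/- library. Stat2 read 898.5, 937.9 and 799.3 in replicates 1 to 3 and 4704 in replicate 4, and Irf9 read 690.4, 676.3 and 622.5 and then 1689. All 4 Mcu-/- libraries lay above the highest WT library (794.7) for Stat2 (exact two-sided permutation p = 0.0286, the least that groups of 4 can give, and 0.0857 adjusted over 72 such tests), whereas for Irf9 the ranges overlapped. Irf8 (5613) and Irf5 (5591) were also highest there among the 8 untreated libraries.

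Irf1 did not share that shift. It read 727.0, 762.8 and 712.8 in replicates 1 to 3 and 515.2 in replicate 4, the lowest of all 20 libraries. Irf2 (916.0) and Irf3 (511.2) were also lowest there among the 8 untreated libraries. The transcript of interferon beta, Ifnb1, had 8.179 normalized counts in replicate 4. Replicate 4 therefore had Irf7 at 20.2-fold, Stat2 at 5.35-fold and Irf9 at 2.55-fold the mean of replicates 1 to 3, and Irf1 at 0.702 of it. As this is 1 library, no test was made.

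**Figure D4:**
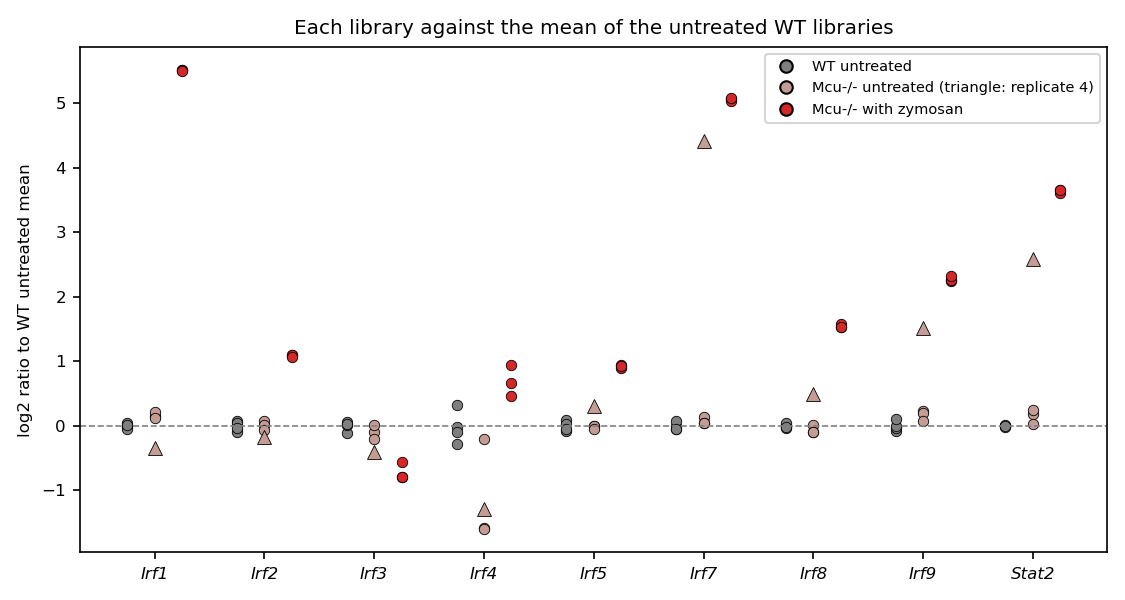
Log2 ratio of each library to the mean of the untreated WT libraries, for untreated WT, untreated Mcu-/- and zymosan-treated Mcu-/- cells. Untreated Mcu-/- replicate 4 (triangle) lies at 4.42 for Irf7, 2.58 for Stat2 and 1.52 for Irf9, above the other untreated libraries and below the zymosan-treated ones, but at -0.34 for Irf1, on the other side of zero.

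Without replicate 4 again 0 of 9 factors were called between untreated genotypes, where 1.68% of all genes tested were called higher and 1.99% lower in Mcu-/- cells. Irf1 (log2 0.17, SE 0.05, edgeR adjusted p = 0.0554), Irf9 (log2 0.18, SE 0.055, adjusted p = 0.0691) and Stat2 (log2 0.16, SE 0.051, adjusted p = 0.0762) came closest. Irf1 and Stat2 had all 3 Mcu-/- libraries above the 4 WT libraries, and for Irf9 the lowest Mcu-/- library (622.5) lay under the highest WT one (631.3). Irf7 differed by 0.08 (95% confidence interval -0.04 to 0.19). Irf4 read 5.335, 13.92 and 5.269 in replicates 1 to 3 against 13.24 to 20.11 in WT, a log2 fold change of -0.96 with a wide interval of -1.70 to -0.22 (edgeR adjusted p = 0.159). When the remaining 19 libraries shared one estimate of spread, Irf1 (adjusted p = 0.014) and Irf9 (0.0296) were called.

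Within the Mcu-/- genotype zymosan raised 7 factors and lowered 1 with all libraries in (edgeR, where 27.5% of all genes were called higher and 32.9% lower, 3221 and 3854 genes, or 1486 and 7467 with scaling by library totals), and Irf7 was not called (adjusted p = 0.11). Without replicate 4 zymosan raised 8 and lowered 1, where 39.5% of all genes were called higher and 42.6% lower. The fold changes without it were 40.6 for Irf1, 31.7 for Irf7, 11.2 for Stat2, 4.3 for Irf9, 3.16 for Irf4, 3.05 for Irf8, 2.12 for Irf2 and 1.91 for Irf5, and Irf3 stood at 0.655 of its untreated level. Against replicate 4 alone, the one untreated library that resembled the zymosan-treated Mcu-/- libraries, the mean with zymosan was 57.9-fold higher for Irf1 but 1.57-fold for Irf7, 2.09-fold for Stat2 and 1.69-fold for Irf9. The choice of untreated comparator thus moved the Irf7 response from 31.7-fold to 1.57-fold. It moved that of Irf2 from 2.12-fold to 2.41-fold.

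The difference between the genotypes' responses was tested as an interaction. With all libraries 3 factors responded less in Mcu-/- cells and 0 responded more (edgeR adjusted p under 0.05, where 17.6% of all genes were called lower and 13% higher). These were Irf8 (log2 difference, Mcu-/- minus WT, -0.52, edgeR adjusted p = 0.019), Irf2 (-0.39, adjusted p = 0.0041) and Irf5 (-0.33, adjusted p = 0.0234). The estimate for Irf7 was -1.31 with an interval of -3.65 to 1.03. Without replicate 4 it became 1.23 (SE 0.068, edgeR adjusted p = 4.47e-18), and 1 factor then responded more and 4 less, where 31% of all genes were called higher and 29.2% lower. The 4 were Irf2 (-0.43), Irf8 (-0.36), Irf5 (-0.24) and Stat2 (-0.17, edgeR adjusted p = 0.0399). For Irf2, Irf5 and Irf8 the smaller response was called with and without replicate 4, and for Irf7 the direction turned with that library. Without the Mcu-/- zymosan library numbered 4 the adjusted p of Irf5 was 0.0563, and without untreated Mcu-/- replicate 2 the difference for Irf4, 1.48, was called (adjusted p = 0.0255).

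Other genes of the pathway were grouped in 7 lists by role, and their counts are to be read against the shares of all genes called, which were 37% higher and 41.1% lower with zymosan in WT cells, 36% and 33.2% in Mcu-/- against WT cells with zymosan, and 14% and 15.9% with BAPTA-AM. Upstream of STAT2 and IRF9, 5 of 8 ligand, receptor and kinase genes rose and 2 fell with zymosan in WT cells (median log2 0.25, all genes -0.04). Ifnb1, which encodes interferon beta, had at most 2 counts in any untreated WT library and 2122 ± 187.9 (SD, n = 5) normalized counts with zymosan, at least 746-fold higher than the 3-count floor per library. The kinase Jak2 rose by a log2 of 2.42. In Mcu-/- cells with zymosan Ifnb1 read 7757 ± 287 (SD, n = 3), a log2 of 1.87 over WT (edgeR adjusted p = 1.95e-21), while with BAPTA-AM it read 939.6 ± 177.7 (SD, n = 4), a log2 of -1.17 (edgeR adjusted p = 1.01e-10). The receptor chains moved in opposite directions in Mcu-/- cells, Ifnar1 by a log2 of -0.55 and Ifnar2 by 0.64. In that comparison 4 of the 8 genes were higher and 2 lower (median 0.10, all genes 0.02), and with BAPTA-AM 1 was higher and 4 lower (median -0.12, all genes 0.001).

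Sensors, adaptors and kinases that activate IRF3, IRF5 and IRF7 showed 15 of 21 higher and 5 lower with zymosan (median log2 0.92). Ifih1, a sensor of double-stranded RNA, rose most (log2 6.18), and Mavs, the adaptor it signals through, fell most (-0.66). In Mcu-/- cells 10 were higher and 6 lower (median 0.07), near the 36% and 33.2% of all genes, with the RNA sensor Tlr3 at 1.87 and the IRF3 kinase gene Ikbke at -0.96. With BAPTA-AM 3 were higher and 7 lower (median -0.02). Among 10 partners and cofactors 4 rose and 5 fell with zymosan (median -0.43), and Irf2bp2, a corepressor that binds IRF2, fell by 3.34 on the log2 scale. In Mcu-/- cells 3 were higher and 6 lower (median -0.42), and Batf3, a partner of IRF8, was at -2.58. With BAPTA-AM 2 were higher and 3 lower (median 0.05).

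Of 5 other STAT genes 4 rose and 1 fell with zymosan (median log2 0.61), led by Stat5a at 2.42. In Mcu-/- cells 1 was higher and 4 were lower (median -0.49), with Stat3 at -0.78, and with BAPTA-AM 0 were higher and 2 lower (median -0.08). Of 12 feedback inhibitors 10 rose and 1 fell with zymosan (median 2.78). Socs1, which blocks JAK kinases, went from 31.66 ± 1.69 (SD, n = 4) to 5478 ± 413.3 (SD, n = 5) normalized counts (log2 7.43). In Mcu-/- cells 5 inhibitors were higher and 3 lower (median 0.06), near the 36% and 33.2% of all genes, with Socs3 at -0.53, and with BAPTA-AM 1 was higher and 7 lower (median -0.12).

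Downstream, 24 of 24 antiviral target genes rose with zymosan in WT cells (median log2 4.41), as did 19 of 19 IRF1-dependent and interferon gamma targets tested (median 4.79, the same with 3 genes set at their floor bound). In Mcu-/- cells with zymosan 19 antiviral genes were higher and 3 lower (median 0.37), and 12 of the IRF1-dependent genes were higher and 6 lower (median 0.19). With BAPTA-AM 1 antiviral gene was higher and 19 lower (median -0.14), and 0 IRF1-dependent genes were higher and 13 lower (median -0.25). In untreated cells without replicate 4, 11 of 24 antiviral genes were higher in Mcu-/- cells and 0 lower (median 0.16, all genes -0.001), where 1.68% and 1.99% of all genes were called, with the chemokine gene Cxcl10 at a log2 of 1.30 (edgeR adjusted p = 3.49e-10), while 0 of the 9 factors passed. With replicate 4 in, 1 of the 24, Cxcl10, was called. With all 20 libraries in one fit, 6 antiviral genes in place of 22 were called in Mcu-/- against WT cells with zymosan and 0 in place of 20 with BAPTA-AM, and 6 IRF1-dependent genes in place of 13 were called with BAPTA-AM. The 3 comparisons of zymosan-treated WT cells share their libraries and were not set against each other by a test.

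**Figure D5:**
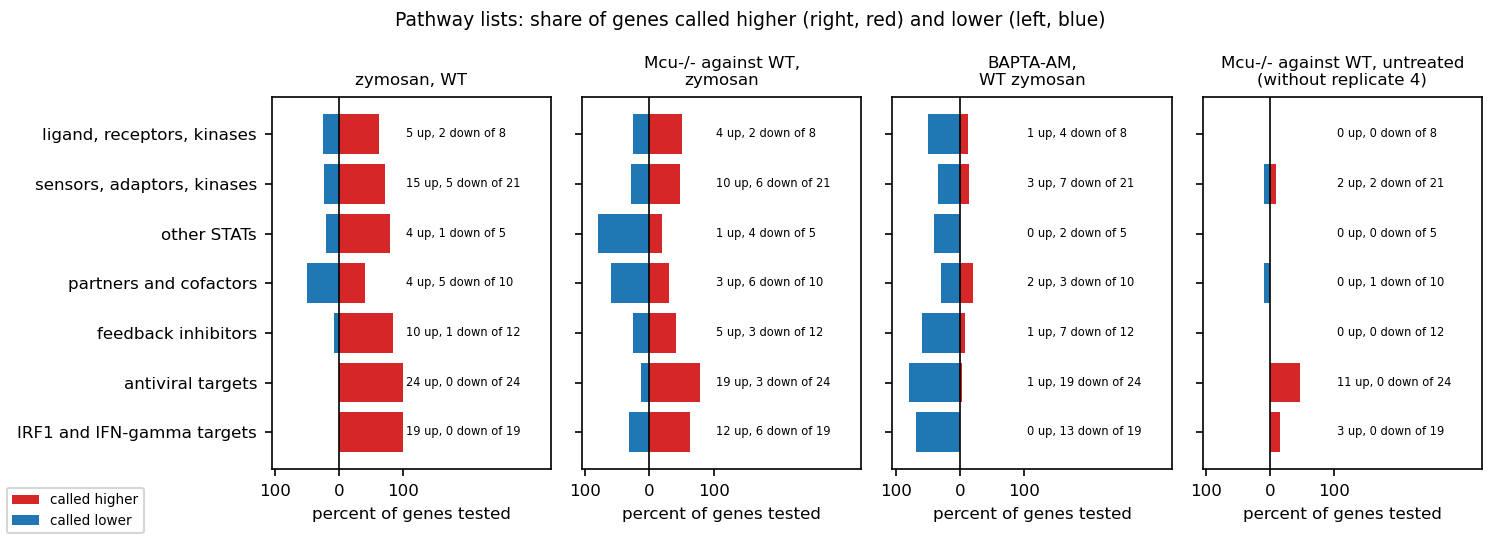
Percent of the tested genes of each pathway list called higher (red, right) or lower (blue, left) in 4 comparisons, with the counts printed beside each bar. Antiviral targets are 24 of 24 higher with zymosan, 19 higher and 3 lower in Mcu-/- cells with zymosan, 1 higher and 19 lower with BAPTA-AM, and 11 higher in untreated Mcu-/- cells without replicate 4.

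Genes whose pattern over the 20 libraries lay closest to each factor were found by the root mean square difference of centred log2 values. Rtp4 (0.156), Herc6 (0.165) and Ddx58 (0.19) were closest to Stat2, and Agpat4 (0.115), Parp12 (0.119) and Adar (0.14) to Irf9. The nearest to Irf7 were Oasl2 (0.334), Plk2 (0.361) and Phf11d (0.379), and to Irf1 Gbp3 and Fam26f at 0.282 and Armcx6 at 0.287. The measure is not scaled to the size of a gene's changes, so its values are not to be compared between factors. Irf8 was nearest to Sertad1 (0.109), Irf2 to Cept1 (0.113), Irf5 to Rnf114 (0.059), Irf3 to Ythdf2 (0.089) and Irf4 to Cd55 (0.482). No factor had another factor among its 3 nearest genes. The genes searched had a mean of at least 10 CPM in some group, which Irf4 did not reach, so it could not be found. Factors with changes of different sizes also lie apart by this measure, so the absence does not bear on shared regulation. These are descriptions over libraries of the same 5 groups, with replicate 4 included.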

How the data were processed

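The deposited values were raw gene counts of 20 libraries, which the authors made from paired-end reads aligned to mm10 with STAR and counted with HTSeq, and which the authors tested with DESeq2. Whether strand was used in counting is not given in the sources used here. Groups came from the sample labels. The Mcu-/- zymosan columns carry numbers 3 to 5 and the labels 1 to 3, so these libraries are named by group. Genes were filtered with filterByExpr and scaled by TMM over all libraries, and each comparison was fitted with edgeR 4.0.16 (R 4.3.3) by quasi-likelihood on the libraries compared, with Benjamini-Hochberg adjustment over 11707 genes and a threshold of 0.05. Exact permutation tests used scipy 1.17.1. In 72 such tests, 0 were under 0.05 after adjustment. With these group sizes no result could have been, even with every test at its least p, so that count says nothing about the factors. Per-kb levels used the merged length of all annotated exons of a gene in GENCODE M21, and promoters came from RefSeq.

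On counts simulated for the zymosan genotype comparison with 200 genes changed by a log2 of 1, edgeR recovered 183 with 4 false calls and DESeq2 1.42.0 recovered 178 with 3. The alternatives were DESeq2's test and size factors, looser and stricter count filters, one fit of all libraries, a replicate block and leaving out each library; scaling by library totals, and list counts without untreated Mcu-/- replicate 4, were added after seeing the data. Members and lists were chosen with earlier results of these data known. Named genes were all members, and in each list the called genes with the largest rise and fall in a comparison; other genes named for a role were chosen after their values were seen. Depth was 14420402 to 23954552 counts per library. Mx2 was not analysed here and Ciita did not pass the filter.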

Additional observations from a re-analysis of the deposited data

Results flagged for a closer look

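In 36 sets of 4 or 5 libraries (9 factors in the 4 groups of that size), 6 held a library whose gap to its nearest neighbour was large for the range of the set. For a single set chance gives about 1 in 20. The sets share libraries and are not independent, so their number cannot be set against that rate. Of the 6 flagged, 5 were untreated Mcu-/- replicate 4, with 12010 normalized counts of Irf7, 4704 of Stat2, 1689 of Irf9, 5613 of Irf8 and 5591 of Irf5. The sixth was Irf4 in untreated Mcu-/- replicate 2, at 13.92 normalized counts.

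The zymosan response differed between genotypes by the interaction test (edgeR) for Irf2 (log2 difference, Mcu-/- minus WT, -0.387), Irf5 (-0.327) and Irf8 (-0.524). Without replicate 4 it differed for Irf7 (1.228), Irf2 (-0.429), Irf8 (-0.364), Irf5 (-0.237) and Stat2 (-0.169). The Mcu-/- zymosan libraries entered both fits, and the division of the libraries that sets them and replicate 4 apart cannot be told apart from genotype.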

How the results depend on the processing

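Of 1078 values of single factors under other settings, 1022 kept their direction and their side of the threshold, 21 lost a call, 8 gained one and 27 changed sign. With all 20 libraries in one fit the number of factors called fell from 7 to 4 for genotype with zymosan and from 6 to 2 for BAPTA-AM, and that fit takes in the spread of untreated Mcu-/- replicate 4. With the other 19 libraries in one fit it rose from 0 to 2 for untreated genotypes and from 3 to 5 for the difference of responses, which was also 5 without replicate 4 in the fit of the groups compared. The replicate numbers did not pair the libraries (correlations of same-numbered deviations from -0.060 to 0.068). With a replicate block 2 factors in place of 8 were called for zymosan in Mcu-/- cells, where 2 numbers are shared, and Irf4 in the zymosan genotype comparison went to -0.231.

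The values that changed sign were of factors with no call when all libraries of a comparison were used. For genotype with zymosan, Irf4 (0.005) was -0.048 with library totals and -0.005 without the count filter, and leaving out one library gave -0.138 to 0.168 for Irf4 and -0.039 to 0.030 for Stat2. For BAPTA-AM, Irf5 was 0.050 with library totals, and leaving out one library gave -0.026 to 0.009 for Irf5 and -0.162 to 0.213 for Irf4. For untreated genotypes leaving out one library gave -0.005 to 0.168 for Irf1, -0.076 to 0.008 for Irf2, -0.016 to 0.112 for Irf5 and -0.063 to 0.158 for Irf8, and without replicate 4 the values were 0.008, -0.016 and -0.063 for Irf2, Irf5 and Irf8 in both kinds of fit. For the difference of responses it gave -0.051 to 0.121 for Irf1 and -1.663 to 1.228 for Irf7, with -0.051 and 1.228 again without replicate 4 in one fit of the remaining libraries. Except for replicate 4, the cause was not tested.

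Of 847 counts of list genes called, 58 moved by over 1.5 times, and in one fit of all 20 libraries the feedback inhibitors called fell from 8 to 3 for genotype with zymosan and from 8 to 3 for BAPTA-AM, and the sensors from 10 to 3 for BAPTA-AM. Of 90 group means of normalized counts 40 moved by over 1 SD, 37 of them with library totals. Over all genes, untreated genotypes gave 1 higher and 3 lower, against 5 and 16 by DESeq2, 15 and 26 with all 20 libraries in one fit, 197 and 233 without replicate 4 and 178 and 211 with the other 19 in one fit. BAPTA-AM gave 753 and 741 with all 20 in one fit against 1644 and 1857. Zymosan in Mcu-/- cells gave 753 and 575 with the block against 3221 and 3854, and the difference of responses 3631 and 3420 without replicate 4 against 1527 and 2065, with 1356 lower under the block. Depth limits Irf4 most, at 5.269 to 37.71 normalized counts.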

Other observations

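The targets of STAT2 and IRF9 did not move as one block in Mcu-/- cells with zymosan. Ifi44, an interferon-induced gene, had 1136 ± 142.2 (SD, n = 5) normalized counts in WT and 11270 ± 288 (SD, n = 3) in Mcu-/- cells (log2 3.31, edgeR adjusted p = 5.06e-25). Mx1, an antiviral GTPase gene, had 33640 ± 2010 and 17490 ± 2590 (log2 -0.94, edgeR adjusted p = 2.51e-13). Untreated, Ifi44 had 1857 ± 3529 (SD, n = 4) in Mcu-/- and 104.1 ± 13.5 (SD, n = 4) in WT cells. The SD in Mcu-/- cells exceeded the mean, and the higher untreated mean was not seen without replicate 4. Without that library the log2 difference of the zymosan responses, Mcu-/- minus WT, was 3.46 (edgeR adjusted p = 1.07e-20). That is no less than the 3.31 between genotypes with zymosan. Genotype and the division of the libraries that sets replicate 4 apart cannot be told apart in the zymosan comparison. Among IRF1-dependent genes Il27, a cytokine subunit gene, was higher (log2 0.84, edgeR adjusted p = 7.76e-16) and Gbp2, a guanylate-binding protein gene, was lower (log2 -0.59, edgeR adjusted p = 1.79e-11). Dhx58, a regulator of RNA sensing, was the antiviral gene with the largest fall with BAPTA-AM, from 3302 ± 169.9 (SD, n = 5) to 2278 ± 113.5 (SD, n = 4) normalized counts (log2 -0.54, edgeR adjusted p = 2.48e-10).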
